A study of Rattus norvegicus with 20 samples.

Results

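Transcripts of the lipid droplet coats and of the regulators of lipolysis were followed in the heart and kidney of rats given Maresin 1 (MaR1) or vehicle. The genes were chosen by name: Plin2, Plin3, Plin4, Plin5, G0s2, Pnpla2, Abhd5, Mgll and Hilpda. Of these 9 names, 8 had a value among the 30560 genes measured. Plin3 had none under its name. RefSeq lists the locus AABR07066529.1, at 6.50 to 9.78 FPKM in heart and 5.57 to 8.45 FPKM in kidney, as a synonym of Plin3, but the deposited description ties it to another gene, so it was not counted here.

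Fatty acids that a cell does not use at once are stored as triglyceride in lipid droplets, whose surface is coated by perilipins. Adipose triglyceride lipase, the product of Pnpla2, takes the first fatty acid off a triglyceride, Abhd5 activates it, and G0s2 and Hilpda inhibit it. Mgll, monoacylglycerol lipase, ends the sequence by splitting the last fatty acid from glycerol. In heart muscle, Plin5 binds the lipase and its activator and links droplets to mitochondria. In kidney, proximal tubule cells burn fatty acids and form droplets when uptake outruns use.

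The groups were 5 hearts of rats given MaR1, 5 hearts of rats given vehicle, 5 kidneys of rats given MaR1 and 5 kidneys of rats given vehicle, with 1 library per organ from each of 10 rats. MaR1 is a lipid mediator made by immune cells from docosahexaenoic acid. All rats were male, labelled WT with no strain named though the title calls them hypertensive, and carried a blood pressure telemeter from 8 weeks of age. All ate 4% NaCl for 3 weeks while a pump under the skin gave vehicle or MaR1 at up to 1.3 µg/kg/day, so no group shows the organs without salt loading. Kidney samples were cortex and heart samples were left ventricle, as bulk tissue with RNA of all its cells.

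Libraries held 19383232 to 30342034 fragments. FPKM is a level scaled by transcript length and by a factor for each library. For a transcript of 1 kb, 1 FPKM stood for 19.7 to 34.9 fragments. This factor did not follow the fragments held alone. In the rat RB030, 1 FPKM stood for 34.9 fragments in the kidney library of 27365595 fragments. In its heart library of 24239346 fragments it stood for 22.2. Relative to the fragments held, the factor was higher in every kidney than in every heart. Kidney FPKM are thus lower beside heart FPKM than scaling by the fragments held would give. Ventricular cardiomyocyte markers summed to 15269 to 25894 FPKM in MaR1 hearts and 16587 to 24666 FPKM in vehicle hearts, and proximal tubule markers to 9183 to 11501 FPKM in MaR1 kidneys and 6157 to 12308 FPKM in vehicle kidneys. Some libraries also held transcripts of neighbouring tissue. Myl7, a myosin light chain of the atrium, exceeded 100 FPKM in 2 MaR1 hearts (RB035 and RB038) and in 3 vehicle hearts (RB031, RB033 and RB034), and was at most 1.65 FPKM in the other 5. Hearts are called with or without atrial transcripts below by this cut alone. The 6 atrial markers summed to 3072 FPKM in the vehicle heart RB030, placed without, and 2927 FPKM in RB031, placed with. Of those 6, Myl7, Myl4 and Sln were at 0.318, 4.95 and 40.3 FPKM in RB030, against 225, 239 and 435 FPKM in RB031. Most of the RB030 sum thus came from the other atrial markers. The adipocyte coat gene Plin1 reached 45.0 FPKM in the MaR1 kidney RB039 and 5.80 FPKM in the MaR1 kidney RB036, and was at most 0.128 FPKM in the other 8 kidneys. In hearts Plin1 reached 2.36 FPKM in the MaR1 heart RB035 and 7.42 and 1.20 FPKM in the vehicle hearts RB034 and RB031, all 3 among the hearts with Myl7, and was at most 0.186 FPKM in the other 7. Adipoq (adiponectin) was at 7.66 FPKM in RB035 and 18.1 and 2.81 FPKM in RB034 and RB031. The fits without other tissue leave out the 5 hearts with Myl7 and the kidneys RB036 and RB039, and their values stand beside the results they move. These cuts used Myl7 and Plin1 alone, so the libraries kept can still hold transcripts of other tissue. The MaR1 kidney RB038, which was kept, had a urothelial marker sum of 32.1 FPKM.

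By the coordinates of the deposited table, Plin4 (ENSRNOG00000047046, chr9:929176-938056) and Plin5 (ENSRNOG00000047860, chr9:939747-946120) are neighbours on the minus strand with 1690 bases between them. The end of Plin4 overlaps Hdgfl2 by 11 bases. Plin2 (ENSRNOG00000007060) is at chr5:101154411-101242319 and G0s2 (ENSRNOG00000006019) at chr13:104806156-104807451, both on the minus strand. Pnpla2 (ENSRNOG00000069673, chr1:196552723-196557805), Abhd5 (ENSRNOG00000000221, chr8:122000389-122026447), Hilpda (ENSRNOG00000070930, chr4:57871110-57874557) and Mgll (ENSRNOG00000014508, chr4:121192195-121294179) are on the plus strand. The table gives Hilpda the biotype lncRNA and the others protein coding, and every value is for the whole gene.

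The promoters below, from RefSeq on GRCr8, are shown for the neighbours Plin4 and Plin5, which had the largest difference between organs, for Plin2, the coat with the lowest unadjusted p between treatments, and for G0s2, the inhibitor that was higher in kidney. Each runs from 250 bases before the start of a transcript to 50 bases after it. Capitals mark AGGTCA, the short site bound by PPAR receptors, and ACGTG and GCGTG, the cores bound by hypoxia-inducible factors, read on either strand.
Plin4 promoter, chr9:1025180-1025479, minus strand: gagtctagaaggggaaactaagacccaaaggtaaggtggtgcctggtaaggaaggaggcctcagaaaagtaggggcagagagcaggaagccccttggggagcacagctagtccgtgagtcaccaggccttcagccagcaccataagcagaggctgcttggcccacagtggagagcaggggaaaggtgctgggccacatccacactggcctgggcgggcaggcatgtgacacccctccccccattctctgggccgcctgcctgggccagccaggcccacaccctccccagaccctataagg
Plin5 promoter, chr9:1033235-1033534, minus strand: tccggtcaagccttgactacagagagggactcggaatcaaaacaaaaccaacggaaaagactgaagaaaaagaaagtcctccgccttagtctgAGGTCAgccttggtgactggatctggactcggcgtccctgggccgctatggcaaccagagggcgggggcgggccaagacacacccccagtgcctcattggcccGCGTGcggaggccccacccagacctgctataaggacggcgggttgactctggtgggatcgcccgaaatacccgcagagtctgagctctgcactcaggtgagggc
Plin2 promoter, chr5:106228969-106229268, minus strand: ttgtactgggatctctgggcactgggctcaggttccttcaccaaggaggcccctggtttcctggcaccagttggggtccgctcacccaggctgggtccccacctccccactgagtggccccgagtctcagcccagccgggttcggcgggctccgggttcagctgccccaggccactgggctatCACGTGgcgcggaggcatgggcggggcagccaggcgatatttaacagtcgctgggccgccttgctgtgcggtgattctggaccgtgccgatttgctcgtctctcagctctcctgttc
G0s2 promoter, chr13:107335899-107336198, minus strand: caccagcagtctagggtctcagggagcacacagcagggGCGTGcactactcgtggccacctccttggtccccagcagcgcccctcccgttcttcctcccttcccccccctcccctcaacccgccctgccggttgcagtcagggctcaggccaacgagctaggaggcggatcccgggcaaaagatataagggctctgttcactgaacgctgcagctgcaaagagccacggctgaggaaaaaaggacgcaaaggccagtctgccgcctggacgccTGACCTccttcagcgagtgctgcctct

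The Plin5 window held 1 AGGTCA and 1 GCGTG, the G0s2 window 1 of each, and the Plin2 window an ACGTG on both strands that overlap as CACGTG. None of these motifs is in the Plin4 window, which is 1 of 5 listed for that gene, and the Plin2 window is 1 of 2. Over the 14 windows of the 9 genes, 3 held AGGTCA (Abhd5, G0s2 and Plin5), and 5 held a hypoxia core (G0s2, Hilpda, Mgll, Plin2 and Plin5). Of all 33469 rat windows, 16.2% held AGGTCA and 41.6% held either hypoxia core.

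The clearest contrast among these genes was between the organs. The heart had Plin4 and Plin5 beside Plin2 and more of the lipase transcript Pnpla2. The kidney had mostly Plin2 among these 3 coats, more of the inhibitor transcript G0s2 and more Mgll. Ranked by median FPKM over the 10 libraries of an organ, the heart order was Pnpla2 (109), Mgll (49.4), Plin2 (29.2), Plin4 (28.2), Plin5 (22.1), G0s2 (16.9), Abhd5 (10.8) and Hilpda (2.82). The kidney order was Mgll (182), G0s2 (68.3), Pnpla2 (42.1), Plin2 (23.7), Abhd5 (7.91), Hilpda (2.11), Plin5 (0.813) and Plin4 (0.0337). In heart, Pnpla2 was above Mgll in every library and Abhd5 was above Hilpda in every library, while the ranges of Plin2, Plin4 and Plin5 ran into one another, at 24.1 to 32.4, 20.6 to 39.4 and 14.9 to 34.7 FPKM. In kidney the range of Mgll, 138 to 249 FPKM, lay above that of G0s2, 36.4 to 78.2 FPKM, and G0s2 overlapped Pnpla2, 35.4 to 121 FPKM.

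**Figure D1:**
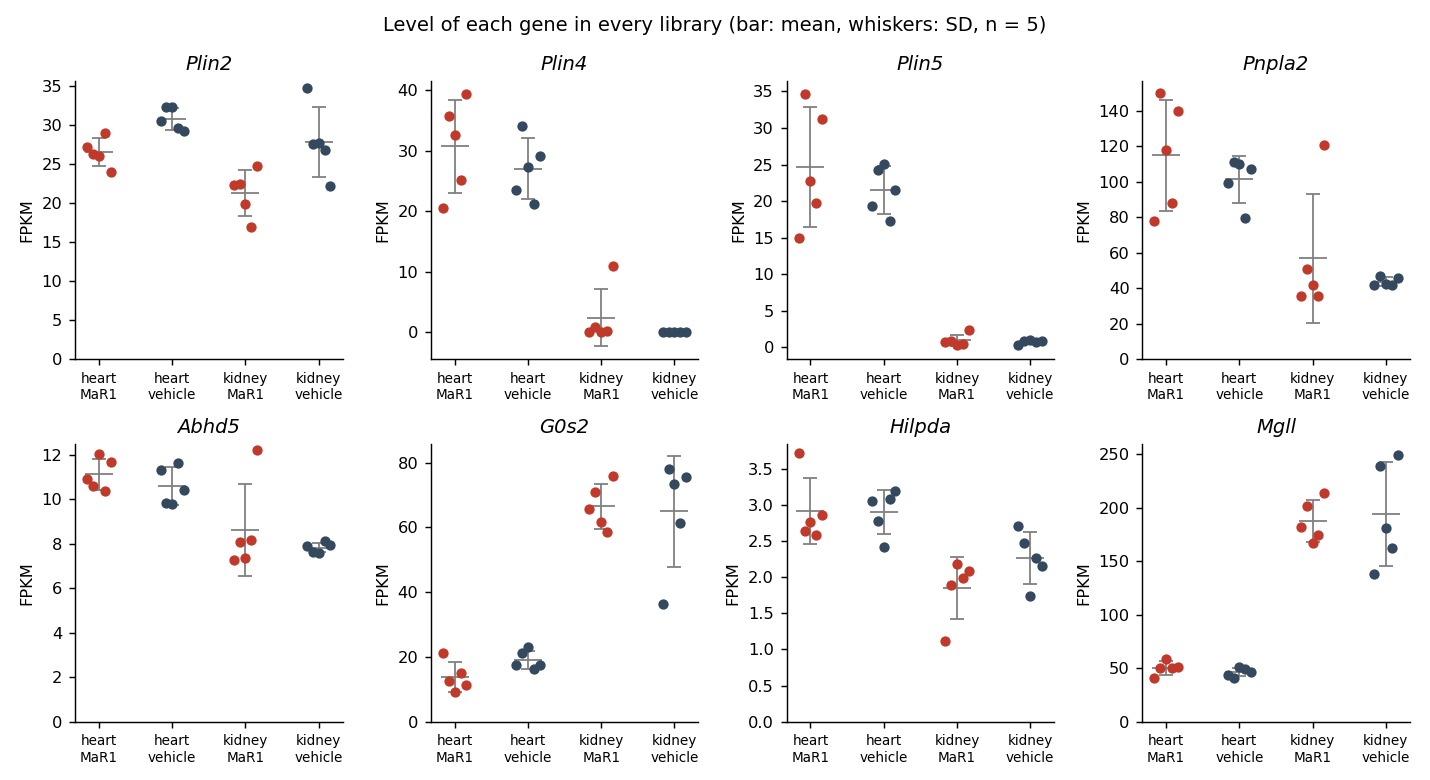
FPKM (linear axes) of each of the 8 genes in all 20 libraries; columns are MaR1 hearts, vehicle hearts, MaR1 kidneys and vehicle kidneys, points are animals, and bars with whiskers are the mean and SD of 5. Plin4 and Plin5 are near 0 in kidneys apart from the MaR1 kidney RB039 at 10.9 and 2.35 FPKM, and the lowest vehicle heart for Plin2, at 29.3 FPKM, lies just above the highest MaR1 heart, at 29.1 FPKM.

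In MaR1 rats, limma on log2(FPKM + 0.5) with Benjamini-Hochberg adjustment over 13006 genes called 8 of 8 of these genes between heart and kidney at adjusted p under 0.05, 6 higher in heart and 2 lower. In vehicle rats it called 7 of 8 over 12978 genes, 5 higher and 2 lower. Most genes differ between these organs: 78.2% of all genes tested were called in MaR1 rats (37.9% higher, 40.3% lower) and 77% in vehicle rats (37% higher, 40% lower), so these counts are near the background and the sizes carry the description. The median log2 difference was 0.46 over the 8 genes in MaR1 rats and 0.36 in vehicle rats, beside -0.02 and -0.03 over all genes tested.

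Plin4, a coat best known from adipocytes and striated muscle, had 20.6, 35.8, 32.6, 25.1 and 39.4 FPKM in MaR1 hearts, against 0.0404, 0.867, 0.0126, 0.160 and 10.9 FPKM in the kidneys of the same rats. In vehicle rats it had 23.5, 34.1, 27.2, 21.1 and 29.1 FPKM in hearts, against 0.0102, 0.0114, 0.0270, 0.00628 and 0.0431 FPKM in kidneys. Every heart was above every kidney, and each vehicle kidney rested on 1 to 5 fragments. The vehicle hearts held 17650 Plin4 fragments in all and the vehicle kidneys 14. Scaled by the fragments that 1 FPKM stood for, this is a ratio of 1514 (95% exact interval 902 to 2771, counting error only). The difference in log2(FPKM + 0.5), which understates such a ratio, was 4.62 ± 0.74 in MaR1 rats and 5.71 ± 0.12 in vehicle rats (SE, n = 5 animals; limma adjusted p = 0.000134 and 9.79e-13). Without the libraries holding other tissue it was 6.0 ± 0.12 in MaR1 rats and 5.63 ± 0.13 in vehicle rats.

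Plin5, the coat of oxidative tissues, had 14.9, 34.7, 22.7, 19.7 and 31.2 FPKM in MaR1 hearts, against 0.684, 0.881, 0.382, 0.422 and 2.35 FPKM in MaR1 kidneys. Vehicle hearts had 19.3, 24.2, 25.1, 17.3 and 21.5 FPKM, against 0.340, 0.908, 1.05, 0.745 and 0.897 FPKM in vehicle kidneys. Hearts and kidneys did not overlap in either treatment, and the heart mean was 26.1 times the kidney mean in MaR1 rats and 27.3 times in vehicle rats. The MaR1 ratio rests on RB039, without which the kidney mean was 0.592 FPKM, against 0.943 FPKM with it. On the log2 scale the difference was 4.21 ± 0.32 in MaR1 rats and 4.11 ± 0.16 in vehicle rats, and without the libraries holding other tissue 4.91 ± 0.17 and 4.16 ± 0.24. In all 10 hearts Plin4 was above Plin5, by 1.03 to 1.44 times in MaR1 hearts and 1.08 to 1.41 times in vehicle hearts. In kidneys Plin4 was below Plin5 in every library other than the MaR1 kidney RB039, where it was 4.64 times Plin5.

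Plin2, the coat found in most cells, differed little between the organs. Its mean was 26.5 ± 1.81 FPKM in MaR1 hearts and 21.3 ± 2.98 FPKM in MaR1 kidneys, with a log2 difference of 0.32 ± 0.10 (limma adjusted p = 0.0109). In vehicle rats it was 30.8 ± 1.46 FPKM in hearts and 27.8 ± 4.52 FPKM in kidneys, and the log2 difference of 0.16 ± 0.10 missed the threshold (adjusted p = 0.178). Without the vehicle rat RB030, whose kidney had the highest Plin2 of all libraries (34.8 FPKM), it was 0.24 (adjusted p = 0.0294). In FPKM, heart was above kidney in 4 of 5 rats of each treatment. A difference this small rests on the scaling of FPKM between libraries.

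Among the enzymes and their regulators, Pnpla2 was higher in heart, at 2.02 times the kidney mean in MaR1 rats and 2.32 times in vehicle rats (log2 difference 1.14 ± 0.32 and 1.20 ± 0.10; limma adjusted p = 0.00736 and 2.58e-07). The MaR1 kidney mean was 56.8 FPKM with the kidney RB039, at 121 FPKM, and 40.8 FPKM without it. Without all libraries holding other tissue the log2 difference was 1.84 ± 0.11 in MaR1 rats and 1.25 ± 0.10 in vehicle rats. That fit also drops the MaR1 hearts RB035 and RB038, the lowest of their group at 78.1 and 88.0 FPKM. Its activator Abhd5 was higher in heart by less, 1.29 times in MaR1 rats and 1.35 times in vehicle rats (log2 difference 0.37 ± 0.13 and 0.41 ± 0.07; adjusted p = 0.0177 and 0.000147). The MaR1 call of Abhd5 was lost without RB035, RB036 or RB037 (adjusted p = 0.0534 to 0.0908), and without the libraries holding other tissue it was 0.56 ± 0.09 (adjusted p = 0.000305). The inhibitor Hilpda had a mean of 2.91 FPKM in MaR1 hearts and 1.85 FPKM in MaR1 kidneys (log2 difference 0.55 ± 0.15, adjusted p = 0.00480). In vehicle rats it had 2.90 FPKM in hearts and 2.26 FPKM in kidneys (0.30 ± 0.11, adjusted p = 0.0243). The vehicle call of Hilpda was lost without RB033 or RB034 (adjusted p = 0.0803 and 0.101), and this gene had only 52 to 142 fragments per library. The small differences of Abhd5 and Hilpda rest on the scaling of FPKM between libraries. They were not fitted on fragments scaled by the fragments held. In vehicle rats median-of-ratios and quantile scaling each called 7 of the 8 genes, the same number as the main fit.

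G0s2 and Mgll went the other way. G0s2 averaged 13.8 ± 4.61 FPKM in MaR1 hearts and 66.5 ± 6.98 FPKM in MaR1 kidneys, a log2 difference of -2.27 ± 0.18. In vehicle rats it averaged 19.1 ± 2.83 FPKM in hearts and 65.0 ± 17.2 FPKM in kidneys, a log2 difference of -1.70 ± 0.19 (limma adjusted p = 4.31e-07 and 5.92e-06). Mgll averaged 50.03 ± 6.45 FPKM in MaR1 hearts and 188 ± 19.6 FPKM in MaR1 kidneys, and 46.2 ± 3.87 FPKM in vehicle hearts and 194 ± 48.4 FPKM in vehicle kidneys. Its log2 differences were -1.90 ± 0.10 and -2.02 ± 0.15 (adjusted p = 1.46e-08 and 1.45e-07). For both genes every heart was below every kidney. Between the organs of the same rats, groups did not overlap for 5 of the 8 genes in MaR1 rats, beside 66.8% of all genes, and for 6 of 8 in vehicle rats, beside 65.9%.

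**Figure D2:**
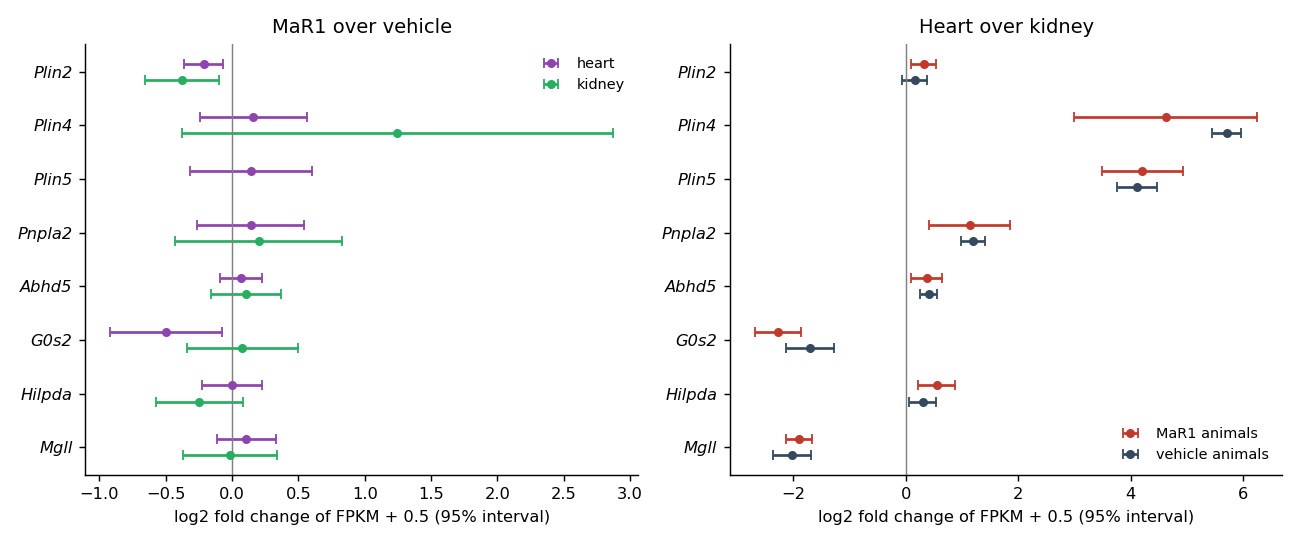
Log2 fold changes of FPKM + 0.5 with 95% intervals from limma, for MaR1 over vehicle (left, hearts and kidneys; Plin5 was not tested in kidney) and for heart over kidney (right, MaR1 and vehicle rats). On the left the intervals leave out 0 before adjustment for Plin2 in both organs and for G0s2 in heart; on the right Plin4 and Plin5 lie above 4 and G0s2 and Mgll below -1.

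Between treatments, no gene in the heart reached adjusted p under 0.05: 0 of 12237 tested (0%), with 563 (4.6%) at an unadjusted p under 0.05, and limma voom on the recovered fragments likewise called 0. Of the 8 genes, 2 were at an unadjusted p under 0.05, Plin2 and G0s2, both lower with MaR1, beside 1.53% of all genes in that direction. The median log2 difference of the 8 was 0.09, beside 0.01 over all genes tested. None of the differences below therefore passed the test across all genes.

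Plin2 had 27.2, 26.4, 26.03, 29.1 and 24.1 FPKM in MaR1 hearts, against 30.5, 32.3, 32.4, 29.6 and 29.3 FPKM in vehicle hearts. All 5 MaR1 hearts were below all 5 vehicle hearts, with 0.25 FPKM between the nearest pair, a pattern that 0.262% of genes tested showed in this direction. The means were 26.5 ± 1.81 and 30.8 ± 1.46 FPKM (SD, n = 5 each), a log2 difference of -0.21 ± 0.07 (95% interval -0.36 to -0.07; limma unadjusted p = 0.00815, adjusted p = 0.998). With both organs in 1 model and the animal as a block the unadjusted p was 0.0503. Between hearts with Myl7 above 100 FPKM it was -0.11 ± 0.11, and between those without it -0.30 ± 0.09, so the sign was the same in both sets. Proximal tubule markers also separated these hearts by treatment, with sums of 361 to 437 FPKM in MaR1 hearts and 278 to 337 FPKM in vehicle hearts (15 of 15 measured, none at 0 throughout a group). Most of that was Aqp1, a water channel that endothelium also expresses, at 320 to 364 FPKM in MaR1 hearts and 261 to 313 FPKM in vehicle hearts. The other 14 summed to 27.4 to 83.7 FPKM in MaR1 hearts and 17.2 to 30.9 FPKM in vehicle hearts, and of 7 tubule markers tested all 7 were higher with MaR1, 4 at an unadjusted p under 0.05. Their part in the heart results was not tested.

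G0s2 had 21.2, 12.6, 9.18, 15.0 and 11.3 FPKM in MaR1 hearts, against 17.6, 21.1, 23.0, 16.2 and 17.6 FPKM in vehicle hearts. The MaR1 hearts other than RB035 were below every vehicle heart, while RB035 was within their range. The log2 difference was -0.49 ± 0.19 (95% interval -0.92 to -0.07; limma unadjusted p = 0.0256, adjusted p = 1.00). Its size went with the atrial transcripts: between the 3 MaR1 and 2 vehicle hearts without them it was -0.85 ± 0.17 (adjusted p = 0.317), and between the 2 MaR1 and 3 vehicle hearts with them -0.03 ± 0.19 (adjusted p = 0.974). Whether these values differ was not tested. With a term for these transcripts in the fit of all 10 hearts it was -0.44 ± 0.18 (adjusted p = 0.738).

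Pnpla2, Plin4 and Plin5 each spread more widely in MaR1 hearts than in vehicle hearts. Pnpla2 had 78.1, 150, 118, 88.0 and 140 FPKM in MaR1 hearts, against 99.5, 111, 110, 79.3 and 107 FPKM in vehicle hearts. The coefficient of variation was 27.4% in MaR1 hearts and 13.1% in vehicle hearts for Pnpla2, 33.1% and 15.1% for Plin5, 25.2% and 18.7% for Plin4, and 33.3% and 14.8% for G0s2. For Abhd5 it was smaller in MaR1 hearts (6.39% and 7.95%). This spread was not tested and was not set beside that of all genes.

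The wide spread ran together across genes. The MaR1 hearts RB036, RB037 and RB039 had the 3 highest values of their group for Pnpla2, Plin4 and Plin5. They had its 3 lowest for G0s2 and are the 3 MaR1 hearts without Myl7 above 100 FPKM. Ventricular cardiomyocyte markers summed to 22279 to 25894 FPKM in them, 20434 FPKM in RB038 and 15269 FPKM in RB035. Among vehicle hearts RB033 had the lowest such sum, 16587 FPKM, and the lowest Pnpla2, Plin4 and Plin5. The part of these markers in the spread was not tested. RB035, at the other end for these 4 genes, also carried Plin1 and Adipoq. The sum of the 13 adipocyte markers measured went the other way. It was 662 FPKM in RB035 and 802 FPKM in RB038, against 979 to 1059 FPKM in RB036, RB037 and RB039. That list includes Fabp4, at 248 to 360 FPKM over the hearts, and Lpl, averaging 472 FPKM in vehicle hearts. Its members did not move together. Like Adipoq and Plin1, Cidec (2.09 FPKM) and Lep (0.687 FPKM) were highest in RB035 among MaR1 hearts. Fabp4, Cidea, Lipe and Ucp1 were not. The part of adipocyte transcripts in this spread was not tested. In RB036, RB037 and RB039 Plin4 averaged 35.9 FPKM, against 25.3 FPKM in the 2 vehicle hearts also without atrial transcripts (log2 difference 0.50 ± 0.12, limma adjusted p = 0.482). Pnpla2 averaged 136 FPKM against 105 FPKM in the same hearts (0.37 ± 0.13, adjusted p = 0.645), and Plin5 29.5 FPKM against 22.2 FPKM (0.39 ± 0.19, adjusted p = 0.733). Between the hearts with atrial transcripts the signs turned, at -0.27 ± 0.22 for Plin4, -0.24 ± 0.18 for Pnpla2 and -0.27 ± 0.19 for Plin5 (adjusted p = 0.901 for each). Over all 10 hearts the log2 differences were 0.16 ± 0.18, 0.14 ± 0.18 and 0.14 ± 0.21 (adjusted p = 1.00 for each).

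The transcript balance of lipase to inhibitor followed the same hearts. Pnpla2 over G0s2, as a ratio of FPKM, was 3.69, 11.9, 12.8, 5.89 and 12.4 in MaR1 hearts, against 5.67, 5.27, 4.80, 4.90 and 6.09 in vehicle hearts. The 3 MaR1 hearts without atrial transcripts were above every other heart, and the other 2 were within or below the vehicle range. Plin2 was also taken as a share of the summed Plin2, Plin4 and Plin5, leaving out Plin1. This share was 43.4%, 27.2%, 32.0%, 39.3% and 25.4% in MaR1 hearts, against 41.6%, 35.6%, 38.2%, 43.5% and 36.6% in vehicle hearts. The same 3 hearts had the lowest shares. These ratios are sums and quotients of the values above and carry no test.

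**Figure D3:**
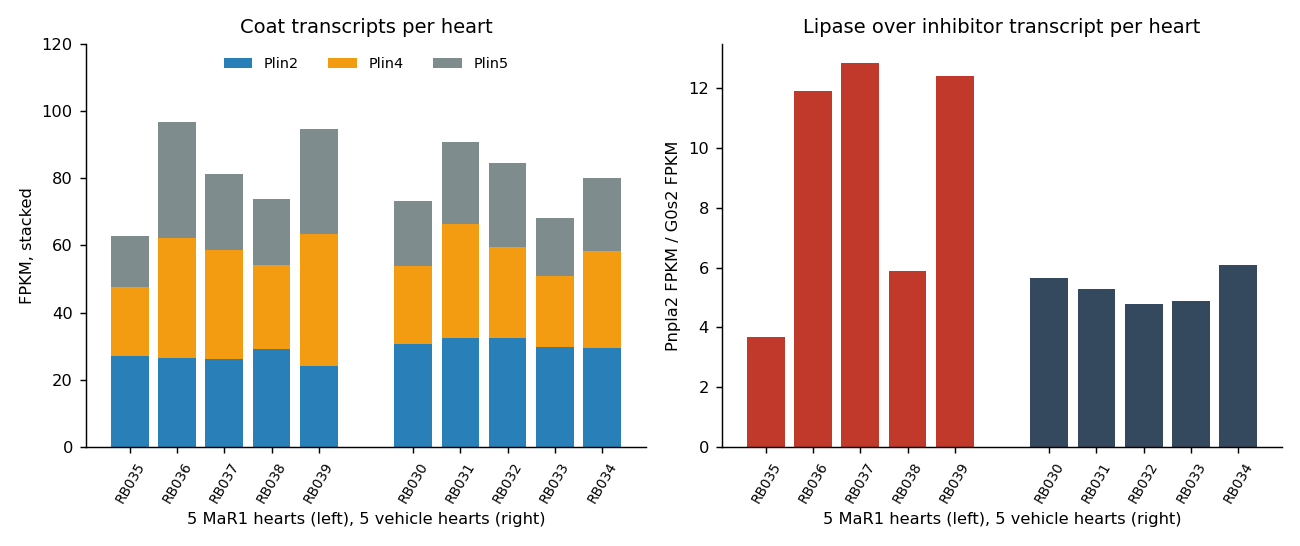
Stacked FPKM of Plin2, Plin4 and Plin5 (left) and FPKM of Pnpla2 divided by that of G0s2 (right) in each heart, with the 5 MaR1 hearts left of the 5 vehicle hearts. The MaR1 hearts RB036, RB037 and RB039 have ratios of 11.9 to 12.8, above all others, while vehicle hearts lie between 4.80 and 6.09.

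The other heart transcripts differed less. Abhd5 averaged 11.1 ± 0.711 FPKM in MaR1 hearts and 10.6 ± 0.842 FPKM in vehicle hearts (log2 difference 0.07 ± 0.07, interval -0.09 to 0.22). Mgll averaged 50.03 ± 6.45 and 46.2 ± 3.87 FPKM (0.11 ± 0.10, interval -0.11 to 0.33). Hilpda averaged 2.91 ± 0.461 and 2.90 ± 0.308 FPKM (-0.00051 ± 0.10, interval -0.23 to 0.23). For these 3 genes the groups overlapped, and the intervals leave room for changes of up to about 0.33 on the log2 scale.

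In the kidney limma likewise called 0 of 12446 genes (0%) between MaR1 and vehicle, with 840 (6.75%) at an unadjusted p under 0.05; voom called 0. One model of both organs with the animal as a block called 10, leaving out RB035 1, and leaving out the MaR1 kidneys RB036 and RB039 283, none of them among these 8 genes. Plin2 was the 1 of 7 tested members at an unadjusted p under 0.05, lower with MaR1, beside 3.47% of all genes in that direction. The median log2 difference of the 7 was 0.08, beside 0.00022 over all genes. Plin5, with a mean under 1 FPKM over the kidneys, was not among the genes tested.

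Plin2 had 22.4, 22.5, 19.9, 17.0 and 24.8 FPKM in MaR1 kidneys, against 34.8, 27.6, 27.7, 26.9 and 22.2 FPKM in vehicle kidneys. The other 4 vehicle kidneys were above every MaR1 kidney; the vehicle kidney RB034 was within the MaR1 range. The means were 21.3 ± 2.98 and 27.8 ± 4.52 FPKM, a log2 difference of -0.38 ± 0.13 (95% interval -0.65 to -0.10; limma unadjusted p = 0.0124, adjusted p = 0.661). Leaving out each rat in turn gave -0.45 to -0.29. Without the MaR1 kidneys RB036 and RB039, which carried Plin1, it was -0.48 ± 0.14 (adjusted p = 0.124). The difference between the organs in the response of Plin2, heart minus kidney, was 0.16 ± 0.14 (interval -0.14 to 0.46; adjusted p = 0.990), so a different response was not detected and one of that size is not shut out.

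Podocyte markers summed to 86.2 to 128 FPKM (9 of 10 genes measured) in MaR1 kidneys and 121 to 168 FPKM in vehicle kidneys. All 9 podocyte markers tested were lower with MaR1, 6 of them at a limma unadjusted p under 0.05. Markers of inner medulla and thin limb (9 of 9) summed to 160 to 333 FPKM in MaR1 kidneys and 121 to 177 FPKM in vehicle kidneys, with none at 0. Of 8 tested, 7 were higher and 1 lower with MaR1, and those 7 were at an unadjusted p under 0.05. None of these markers was called. Of 15 proximal tubule markers 12 were lower and 3 higher with MaR1, with a median log2 difference of -0.28 and none at an unadjusted p under 0.05. The part of these 3 lists in the Plin2 difference was not tested. In bulk tissue, fewer cells of a type and less transcript per cell cannot be told apart.

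The MaR1 kidney RB039 stood apart for 4 of these genes, Plin4, Plin5, Pnpla2 and Abhd5. Pnpla2 had 35.4, 50.6, 41.6, 35.7 and 121 FPKM in MaR1 kidneys, against 42.1, 46.6, 42.2, 41.7 and 45.8 FPKM in vehicle kidneys. Against the mean of the other 4 MaR1 kidneys, RB039 was 40.4 times as high for Plin4, 3.96 times for Plin5, 2.95 times for Pnpla2 and 1.58 times for Abhd5. For Plin2, G0s2, Hilpda and Mgll it was 1.16 to 1.21 times as high. Of the summed Plin2, Plin4 and Plin5, Plin2 made up 65.2% in this kidney and 92.8% to 98.1% in the other 4 MaR1 kidneys. In vehicle kidneys it made up 95.9% to 99.0%. That sum leaves out Plin1, at 45.0 FPKM in RB039 and 5.80 FPKM in RB036.

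The kidney RB039 carried 120 FPKM of Adipoq, 106 FPKM of Ucp1 (the uncoupling protein of brown fat) and 45.0 FPKM of Plin1. The adipocyte markers, 13 of 14 measured, summed to 802 FPKM in RB039, 103 FPKM in RB036 and 44.0 to 48.7 FPKM in the other 3 MaR1 kidneys, against 32.5 to 37.5 FPKM in vehicle kidneys, where Lep was at 0. Urothelial markers (7 of 7) summed to 0.510 to 87.7 FPKM in MaR1 kidneys, highest in RB039, and 0.273 to 4.26 FPKM in vehicle kidneys. The 4 of them tested were all higher with MaR1, each at a limma unadjusted p under 0.05. Without RB036 and RB039 the log2 difference of Pnpla2 was -0.22 ± 0.08 (limma adjusted p = 0.239), against 0.20 ± 0.29 (adjusted p = 0.933) with them. That of Abhd5 was -0.04 ± 0.07 without them and 0.11 ± 0.12 with them. Plin4 entered the kidney test only through RB039 (1.25 ± 0.74, adjusted p = 0.798), and without RB036 and RB039 it was not among the genes tested. Without any filter, Plin5 gave 0.05 ± 0.31 (adjusted p = 0.988).

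**Figure D4:**
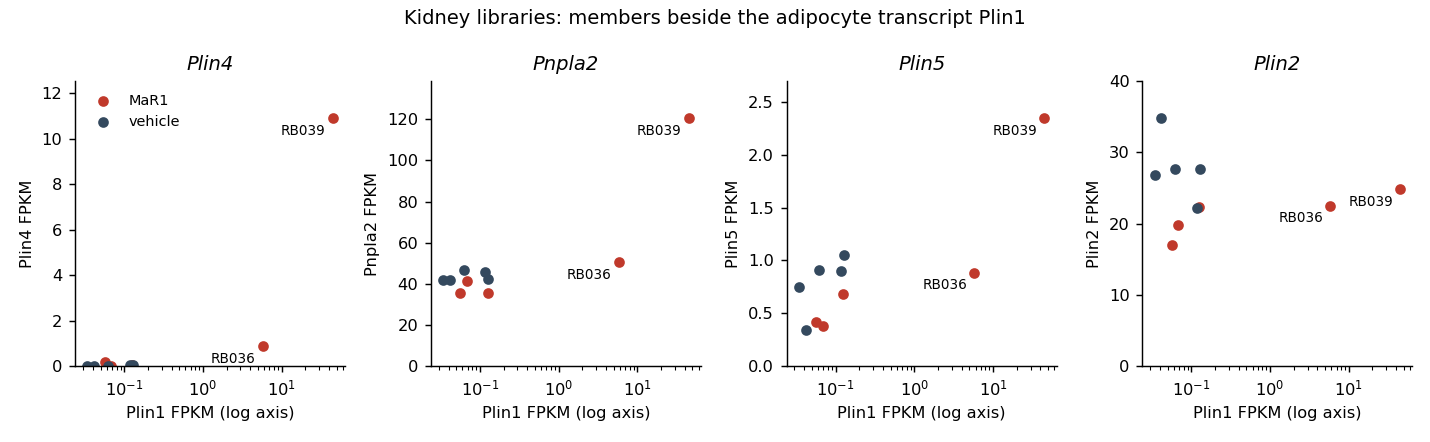
FPKM of Plin4, Pnpla2, Plin5 and Plin2 (linear axes from 0) against Plin1 FPKM (log axis) in the 10 kidney libraries, MaR1 and vehicle. The MaR1 kidney RB039, with 45.0 FPKM of Plin1, has the highest Plin4 (10.9), Pnpla2 (121) and Plin5 (2.35), but its Plin2 (24.8) is below that of 4 vehicle kidneys.

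The remaining kidney transcripts overlapped between treatments. G0s2 had 65.7, 70.9, 61.6, 58.5 and 75.8 FPKM in MaR1 kidneys, against 36.4, 78.2, 73.3, 61.4 and 75.6 FPKM in vehicle kidneys (log2 difference 0.08 ± 0.19, interval -0.34 to 0.50). The sign turned to -0.12 without the vehicle rat RB030, whose kidney was the lowest. Mgll averaged 188 ± 19.6 FPKM with MaR1 and 194 ± 48.4 FPKM with vehicle (-0.01 ± 0.16, interval -0.37 to 0.34). Hilpda averaged 1.85 ± 0.424 and 2.26 ± 0.363 FPKM (-0.25 ± 0.15, interval -0.58 to 0.08). Pnpla2 over G0s2 was 0.539 to 1.59 in MaR1 kidneys, highest in RB039, and 0.576 to 1.16 in vehicle kidneys.

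Whether the response differed between the organs was tested with all 20 libraries in 1 model. It called 0 of 12984 genes (0%), with 714 (5.5%) at an unadjusted p under 0.05, and voom called 0. Without the libraries that held other tissue it called 16, and without RB035, RB036 or RB039 it called 3, 1 and 3, with none of these 8 genes among them. None of the 8 members was at an unadjusted p under 0.05. The smallest p belonged to G0s2, whose response was -0.57 ± 0.28 in heart minus kidney (interval -1.16 to 0.02; limma unadjusted p = 0.0574, adjusted p = 0.908). With the animal as a block that unadjusted p was 0.0397 (adjusted p = 0.906). Plin4 gave -1.08 ± 0.79 and Pnpla2 -0.06 ± 0.36, and without the libraries that held other tissue both turned positive, at 0.37 and 0.59 (adjusted p = 0.411 and 0.124). Plin5 gave 0.09 ± 0.38, and 0.75 ± 0.32 without those libraries (unadjusted p = 0.0367, adjusted p = 0.380). Without them G0s2 was -0.83 ± 0.34 (adjusted p = 0.358). Hilpda gave 0.25 ± 0.19, Mgll 0.12 ± 0.19 and Abhd5 -0.04 ± 0.14, and without those libraries 0.33 ± 0.26, 0.29 ± 0.27 and 0.15 ± 0.12.

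The wider pathway of droplet formation and lipolysis was read from 36 other genes. In heart 31 were tested, 16 were higher and 15 lower with MaR1, none was called, and the median log2 difference was 0.00219, beside 0.01 over all genes tested. The smallest p values were those of the phospholipase Ddhd2 (-0.17 ± 0.10), Tmem159, which acts with seipin (-0.10 ± 0.06), and the seipin gene Bscl2 (0.13 ± 0.08), at unadjusted p of 0.107 to 0.142. In kidney 32 were tested, 16 higher and 16 lower, none called, with a median of 0.00068.

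The kidney genes of that pathway with the smallest p were Cidec, Lipa and Dgat2. Cidec, which fuses droplets and is also on the adipocyte list, averaged 24.9 ± 11.55 FPKM in MaR1 kidneys and 10.7 ± 5.58 FPKM in vehicle kidneys (log2 difference 1.25 ± 0.37, limma adjusted p = 0.621). Dgat2, which makes triglyceride, averaged 21.2 ± 16.7 and 10.1 ± 2.50 FPKM (0.81 ± 0.36, adjusted p = 0.734). Both were highest in RB039, at 45.0 and 50.7 FPKM, against at most 22.7 and 17.0 FPKM in the other 4 MaR1 kidneys. Lipa, the lysosomal acid lipase, averaged 35.8 ± 7.27 and 43.2 ± 2.03 FPKM (-0.29 ± 0.12, adjusted p = 0.721). Between organs in vehicle rats 12 of 32 were called higher in heart and 17 lower, beside 37% and 40% of all genes tested. Lpl (lipoprotein lipase) was at 472 FPKM in heart against 13.0 FPKM in kidney and Cidea at 44.1 against 0.786 FPKM. Cideb, the liver and kidney relative of Cidea, was at 0.138 FPKM in heart against 26.6 FPKM in kidney.

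PPAR targets, which include enzymes of fatty acid oxidation, were not called in either organ. In heart 15 of 25 tested were higher and 10 lower with MaR1 (median 0.01). The smallest p values there were those of Fabp1 (0.41 ± 0.20), Ppard (0.23 ± 0.12) and Vnn1 (-0.18 ± 0.12), none below 0.0658 unadjusted. In kidney 8 of 25 were higher and 17 lower (median -0.01). Cpt1b, the muscle and brown fat carnitine transferase, averaged 6.52 ± 4.61 FPKM in MaR1 kidneys and 2.05 ± 0.330 FPKM in vehicle kidneys (1.26 ± 0.33, adjusted p = 0.588), with 14.3 FPKM in RB039 and at most 6.91 FPKM in the other MaR1 kidneys. The proximal tubule oxidase Cyp4a1 averaged 21.5 ± 8.57 and 30.9 ± 5.48 FPKM (-0.59 ± 0.25, adjusted p = 0.721), and Vnn1, a pantetheinase, 20.9 ± 8.71 and 31.9 ± 5.85 FPKM (-0.69 ± 0.27, adjusted p = 0.715).

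Hypoxia targets, the class to which Hilpda belongs, were not called either. In heart 8 of 17 tested were higher and 9 lower (median -0.01), with the glycolytic regulator Pfkfb3 at 8.00 ± 0.513 FPKM in MaR1 hearts and 6.56 ± 0.548 FPKM in vehicle hearts (0.27 ± 0.07, limma adjusted p = 0.877). P4ha2, a collagen prolyl hydroxylase, gave 0.24 ± 0.09 and Mxi1 0.22 ± 0.09. In kidney 11 of 18 were higher and 7 lower (median 0.04), with Ndrg1 at 319 ± 38.99 and 464 ± 116 FPKM (-0.51 ± 0.18), Adm (adrenomedullin) at 4.92 ± 1.24 and 6.86 ± 1.09 FPKM (-0.46 ± 0.17) and Egln3 at 4.17 ± 0.891 and 3.29 ± 0.326 FPKM (0.28 ± 0.13; adjusted p = 0.683, 0.683 and 0.743). Between organs in vehicle rats, 16 PPAR targets were called higher in heart and 9 lower of 26, and 10 hypoxia targets higher and 6 lower of 18. Of all genes tested, 37% were called higher and 40% lower. Cpt1b was at 151 FPKM in heart against 2.05 FPKM in kidney, Pdk1 at 135 against 5.10 FPKM, and Cyp4a3 at 0.0928 against 108 FPKM.

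For each gene, the pair of transcripts closest to it in log2(FPKM + 0.5) over the 20 libraries, after centring each gene, was found among 12984 genes. The libraries share 2 organs, which set most of this likeness, and the measure is the root mean square difference on the log2 scale. The potassium channel gene Kcnk3 (0.32) was among the pair closest to Plin4. Plin5 was closest to Fabp3, the heart fatty acid binding protein (0.22), and Fitm1, a droplet protein of muscle (0.28). Pnpla2 was closest to the fatty acid transporter Slc27a1 (0.25) and Plaat3 (0.26). G0s2 was closest to Slc6a4 (0.27) and Ankrd37 (0.28), and Mgll to Def8 (0.15) and Atp6v0d1 (0.15). Plin2, Abhd5 and Hilpda, which differed least between organs, were closest to Rpia and Cblb, to Mcu and Sun2, and to Pprc1 and Extl3, all within 0.12 to 0.16.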

How the data were processed

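Poly-A RNA was sequenced from kidney cortex and left ventricle of 10 rats (5 MaR1, 5 vehicle). The authors deposited FPKM per gene; per the submitters' processing notes, fastp, HISAT2 2.0.5, StringTie 1.3.3b and featureCounts 1.5.0-p3 were used. Genome build and strand setting are not given in the sources used here; overlapping genes may thus share reads. Multiplied by gene length, 100% of 371175 values above 0 came out as whole fragments (tolerance 0.01), and these fragments went into limma voom.

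From the deposited FPKM, log2(FPKM + 0.5) was computed and genes averaging 1 FPKM or more in the fitted libraries went into limma 3.58.1 (R 4.3.3; trend, two-sided), adjusted by Benjamini-Hochberg over all genes tested, threshold 0.05. Steps were tested on simulated data. No library was a copy of another (over 190 pairs, chi-square per degree of freedom was 9.57 or more). The 2 libraries of a rat come from 1 animal by their labels, which pairs the organs. Over 12984 genes their deviations correlated at -0.0170 to 0.139. For 2 of 10 rats the best match was the other organ of the same rat. The main fits between organs did not use the pairing.

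The genes, lists and fits were chosen with earlier results of these data known. Named were all members, the 3 genes of smallest p per list and treatment comparison, the 3 largest organ differences per list, and the 2 nearest transcripts per member (1 is not reported here); Adipoq, Ucp1, Plin1 and Myl7 were picked with their values in view, and so were the fits without, or only with, libraries holding other tissue. Promoters were matched by symbol for 9 of 9 genes. Alternatives were pseudocounts of 0.1 and 1, no filter or a mean of at least 5, quantile and median-of-ratios scaling, no trend, voom (statmod 1.5.0 for the block), an animal block, and dropping each rat. Figures used matplotlib 3.10.9. Cd36, Pgk1, Car9, Adig and Synpo are not analysed here.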

Additional observations from a re-analysis of the deposited data

Results flagged for a closer look

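Of 32 groups of 5 libraries (8 genes in 4 groups), 6 had a library whose gap to its nearest neighbour exceeded 0.71 of the range of its group; chance gives about 1 in 20. Of these, 4 were the MaR1 kidney RB039: Plin4 at 10.9 FPKM (next 0.867), Plin5 at 2.35 (next 0.881), Pnpla2 at 121 (next 50.6) and Abhd5 at 12.2 (next 8.17). This is the kidney with 45.0 FPKM of Plin1. The other 2 were Hilpda in the rat RB035: its MaR1 heart was the highest of its group at 3.71 FPKM (next 2.86), and its MaR1 kidney the lowest at 1.12 FPKM (next 1.89).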

How the results depend on the processing

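No member was called between MaR1 and vehicle, or for the difference between organs, under any alternative run. The numbers of genes called moved more. In kidney, against 0, the animal as block in 1 model of both organs gave 10. Leaving out the kidneys RB036 and RB039 gave 283, and leaving out each animal gave 0 to 1. For the difference between organs, against 0, a pseudocount of 0.1 gave 1, no variance trend 1, leaving out libraries with other tissue 16 and leaving out each animal 0 to 3. The cause was not tested. The block changed no member's call; for the vehicle organ comparison it gave 9941 genes, against 9989.

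Some small differences changed sign. In kidney, without libraries with other tissue, Pnpla2 was -0.22, Abhd5 -0.043 and G0s2 -0.019; without each animal Pnpla2 ranged from -0.11 to 0.33, Abhd5 from -0.021 to 0.16, G0s2 from -0.12 to 0.16 and Mgll from -0.13 to 0.085. Quantile scaling gave Mgll 0.00093. In heart, Hilpda was 0.0071 under quantile scaling, 0.00089 under voom, 0.014 without hearts with atrial transcripts, 0.039 with those alone and 0.027 with a term for them, and ranged from -0.079 to 0.033 without each animal. Hearts with atrial transcripts alone gave Plin4 -0.27, Plin5 -0.27, Pnpla2 -0.24 and Mgll -0.013. For heart minus kidney, without libraries with other tissue, Plin4 was 0.37, Pnpla2 0.59 and Abhd5 0.15; without each animal Plin5 ranged from -0.034 to 0.28, Pnpla2 from -0.17 to 0.17, Abhd5 from -0.11 to 0.071 and Mgll from -0.00086 to 0.22. Among organ calls, Hilpda in vehicle rats was also lost under voom (0.36, adjusted p = 0.0539) and without hearts with atrial transcripts (0.23, adjusted p = 0.227).

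Counting error limits Hilpda and, in kidney, Plin4 and Plin5. Leaving out hearts or kidneys with other tissue leaves 2 to 5 animals a group.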
